A study of Macaca fascicularis with 9 samples.

Results

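Microglial identity was described here through 10 genes: CSF1R, P2RY12, CX3CR1, DOCK8, APBB1IP, PTPRC, AIF1, SPP1, APOE and CD74. They are known markers of microglia, chosen by name with earlier results of these data known. All 10 are among the 29128 features of the deposited count matrix. The matrix covers 79994 nuclei from frozen thalamus, of which the authors annotated 5727 as myeloid, 3313 in cluster 7 and 2414 in cluster 9 of 17 clusters. All 9 animals were female cynomolgus monkeys (Macaca fascicularis), 3 per group, and each animal gave 1 library of nuclei sorted by a DNA stain. The first group (ASO) received 1 dose of 4 mg of an antisense oligonucleotide against the nuclear long noncoding RNA MALAT1 into the cerebrospinal fluid. The second group (OTV) received 4 biweekly doses of OTV:MALAT1 at 30 mpk into a vein, where OTV stands for a carrier protein that binds the transferrin receptor. The third group received 4 biweekly doses of saline into a vein, and every thalamus was collected 2 weeks after dosing ended. Route and number of doses differ between ASO and saline, so drug and injection cannot be told apart in that comparison.

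Microglia are the resident macrophages of the brain. Their survival depends on signalling through CSF1R, and at rest they express receptors such as P2RY12 and CX3CR1 with which they sense nucleotides from injured cells and the neuronal chemokine fractalkine. On activation they are known to lose these homeostatic receptors and to express lipid-handling, matrix and antigen-presentation genes such as APOE, SPP1 and CD74. The genes are therefore described in 3 roles: 3 homeostatic members (CSF1R, P2RY12, CX3CR1), 4 shared members found in myeloid cells or leukocytes in general (DOCK8, APBB1IP, PTPRC, AIF1) and 3 activated members (SPP1, APOE, CD74).

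UMIs were summed per animal over the nuclei of a type, and levels are given as CPM, the count of a gene divided by the count of all genes in that sum and scaled to the same total for every animal and type. Each animal gave 370 to 1103 myeloid nuclei with 753516 to 3815142 UMIs. OTV replicate 3 was the shallowest, with a median of 1543 UMIs per myeloid nucleus, and ASO replicate 2 the deepest, with a median of 5737. MALAT1, the target, made up 3.29% ± 0.179 of the myeloid counts of the saline group, against 2.25% ± 0.977 for ASO and 1.83% ± 0.0172 for OTV (SD, n = 3 each). Barcode sequences were shared by 2 or more libraries in 760 of 79232 cases, and in 4 of 5723 cases among myeloid nuclei. Of 15 listed microglial markers, the members included, 13 were found by symbol and summed to 4779 to 7524 CPM in myeloid nuclei, against 160 to 999 CPM in astrocytes and 249 to 657 CPM in oligodendrocytes. Much of the sums in those other types is APOE, with a mean of 515 CPM in astrocytes, and SPP1, with a mean of 305.5 CPM in oligodendrocytes. Against the label, 34 nuclei of ASO replicate 3, described with PTPRC, carried T and NK cell UMIs and 0 CSF1R UMIs. Of 7 monocyte and neutrophil markers, S100A8 and S100A12 were at 0 in all groups, and the list summed to 23.6 to 53.3 CPM in myeloid nuclei. The 8 border macrophage genes listed summed to 1231 to 1892 CPM there. Of these, MS4A7 was measured at 435 to 855 CPM, MRC1 at 454 to 693 CPM and CD163 at 38.3 to 211 CPM. F13A1 stood at 11.3 to 32.5 CPM, SIGLEC1 at 0.793 to 9.84 CPM and LYVE1 at 0 to 6.74 CPM.

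Of the 10 genes, 8 had their highest level in myeloid nuclei in every animal, while SPP1 was highest in oligodendrocytes and APOE, on average, in astrocytes. CSF1R, the receptor for the growth factors CSF1 and IL34, stood at 884 ± 101 CPM in myeloid nuclei (SD, n = 9), against 5.63 to 7.42 CPM on average in the 5 other types. P2RY12, the ADP receptor that steers microglial processes, stood at 216 ± 86.1 CPM against at most 6.38 ± 3.97 CPM, in astrocytes (SD, n = 9 each). CX3CR1, the fractalkine receptor, stood at 700.1 ± 231 CPM against at most 6.13 ± 9.00 CPM, in the nuclei that the authors left unnamed (SD, n = 9 each). That level rests on 4 CX3CR1 UMIs in unnamed cluster 15 and 4 in unnamed cluster 16. ASO replicate 2 had only 8 unnamed nuclei. For each of these 3 genes the lowest myeloid value of any animal lay above the highest value of any animal in every other type. The same separation held for DOCK8, APBB1IP, PTPRC, AIF1 and CD74. Below the myeloid nuclei, types next to each other in the order of mean level had overlapping ranges for each of these genes. Within animals some neighbours still differed. P2RY12 was higher in astrocytes than in OPCs (oligodendrocyte precursor cells) in 9 of 9 animals, and APBB1IP was higher in OPCs than in neurons in 8 of 9. These type differences are descriptions without a test, because the types were made from the same counts.

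**Figure D1:**
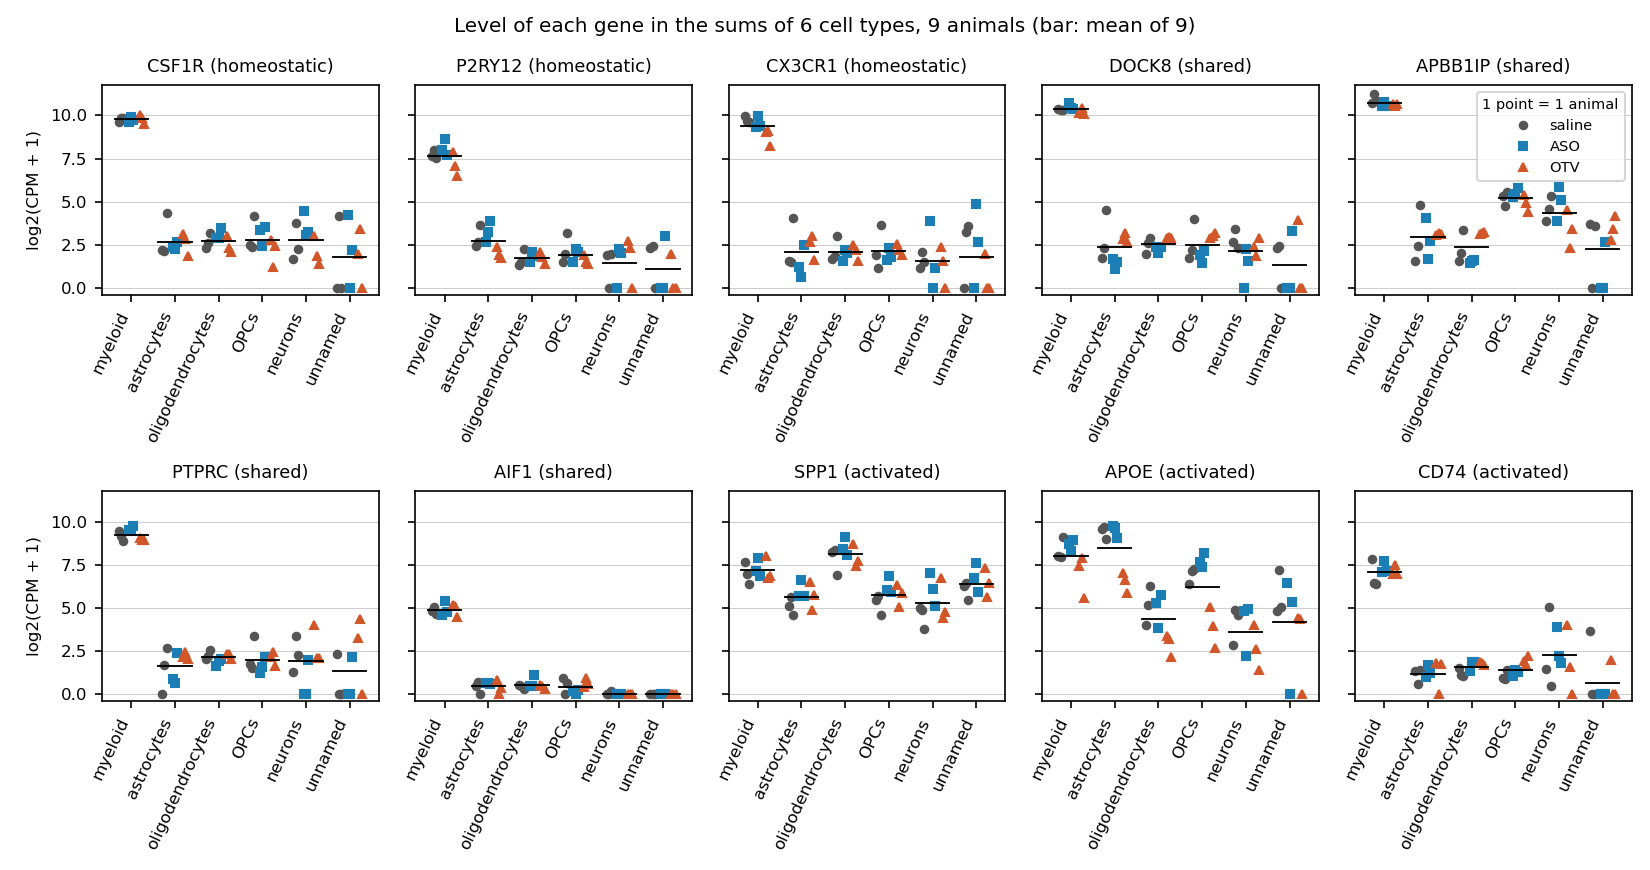
Level of each of the 10 genes in the summed nuclei of 6 cell types, as log2(CPM + 1) on the vertical axis, with 1 point per animal, marked by group, and a bar at the mean of 9 animals. All genes except SPP1 and APOE have their myeloid points above the points of every other type, SPP1 is highest in oligodendrocytes, and APOE has its highest mean in astrocytes.

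Among the shared members, DOCK8, a guanine nucleotide exchange factor of leukocyte migration, stood at 1320 ± 174 CPM in myeloid nuclei and 5.05 ± 1.57 CPM in oligodendrocytes (SD, n = 9 each). PTPRC, the leukocyte phosphatase CD45, stood at 624 ± 133 and 3.45 ± 0.864 CPM in the same types (SD, n = 9 each). AIF1, which encodes the widely used microglial antigen IBA1, had few UMIs in nuclei, with 29.6 ± 6.54 CPM in myeloid nuclei and 0.449 ± 0.295 CPM in oligodendrocytes (SD, n = 9 each). APBB1IP, an adaptor that links Ras-family signals to integrin activation, was the shared member with the highest level outside the myeloid nuclei. It had 1719 ± 288 CPM there, 37.4 ± 10.9 CPM in OPCs and 23.7 ± 16.3 CPM in neurons (SD, n = 9 each). The OPC level lay between 20.3 and 54.8 CPM in the 9 animals, 1.07% to 3.66% of the myeloid level of the same animal.

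The activated members divided. CD74, the invariant chain of MHC class II, was highest in myeloid nuclei, with 146 ± 50.9 CPM there, 7.94 ± 10.6 CPM in neurons and 2.04 ± 0.663 CPM in oligodendrocytes (SD, n = 9 each). The neuron mean weights all animals equally, among them ASO replicate 2 with 17 neurons and ASO replicate 1 with 18. With all animals pooled, neurons held 53 CD74 UMIs, or 2.37 CPM. SPP1, the secreted matrix protein osteopontin, was higher in oligodendrocytes than in myeloid nuclei in 9 of 9 animals, at 305.5 ± 135 against 155 ± 63.3 CPM (SD, n = 9 each). The oligodendrocyte level amounted to 197% ± 48.8 of the myeloid level, with a range of 141% to 269% over the animals. RNA of oligodendrocytes was also present in the myeloid sums. The myelin gene MOG reached 3.21% to 12.6% of its oligodendrocyte level there, while SPP1 reached 37.1% to 70.8%. What part of the myeloid SPP1 came from oligodendrocyte RNA was not tested.

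APOE, the main lipid carrier of the brain, was highest in astrocytes at 515 ± 341 CPM, followed by myeloid nuclei at 305 ± 159 CPM and OPCs at 122 ± 97.3 CPM (SD, n = 9 each). Astrocytes exceeded myeloid nuclei in 6 of 9 animals, and the exceptions were saline replicate 3 and OTV replicates 1 and 2. APOE in myeloid nuclei reached 29.8% to 248% of its astrocyte level. The astrocyte genes SLC1A2, AQP4, GFAP and GJA1 reached 0.113% to 2.06%, 0.584% to 17.1%, 1.63% to 14.3% and 0.296% to 15.8%, all below the APOE range. Clusters 7 and 9 had similar APOE levels over all animals, 299 and 316 CPM.

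The share of nuclei with at least 1 UMI gave the same picture. After each nucleus was thinned to 1000 UMIs, CSF1R was found in 57.2% ± 3.98 of myeloid nuclei and 0.647% ± 0.237 of oligodendrocytes (SD, n = 9 each). Without thinning the shares were 90.5% ± 8.09 and 3.41% ± 1.32 (SD, n = 9 each). P2RY12 was found in 18.2% ± 6.43 of thinned myeloid nuclei and 0.274% ± 0.0868 of thinned oligodendrocytes, or 49.1% ± 18.7 and 1.40% ± 0.603 unthinned (SD, n = 9 each). CD74 was found in 10.9% ± 3.79 and 0.221% ± 0.0745 of thinned nuclei, or 27.6% ± 12 and 1.17% ± 0.495 unthinned (SD, n = 9 each). SPP1 again stood apart, with 13.9% ± 5.48 of thinned myeloid nuclei and 25.1% ± 9.44 of thinned oligodendrocytes, or 39.2% ± 17.4 and 69.1% ± 19.9 unthinned (SD, n = 9 each). Oligodendrocytes should lack the homeostatic receptors, so their shares stand here as the comparison level for those genes, and the source of these UMIs was not tested.

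Nuclei of the myeloid class were fairly even in some members and uneven in others. The coefficient of variation between nuclei of an animal, each scaled to its own depth and with counting noise removed, averaged 0.293 for CSF1R and 0.309 for DOCK8 over 9 animals. It was 0.457 for APBB1IP, 0.559 for P2RY12, 0.563 for PTPRC and 0.699 for CX3CR1. The PTPRC mean includes 0.912 in ASO replicate 3, the animal with 34 nuclei that carry T and NK cell UMIs, and in cluster 9 the mean was 0.384. The CSF1R mean includes a 0 in OTV replicate 3, where the spread did not exceed counting noise. CD74 was the most uneven at 1.66, followed by APOE at 1.00, SPP1 at 0.997 and AIF1 at 0.870. By the median of the 9 animals the order of these was CD74 at 1.53, SPP1 at 0.892, AIF1 at 0.868 and APOE at 0.765, since the APOE mean includes 2.54 in OTV replicate 3, from 35 UMIs. For CD74 the 9 animals held 150 nuclei with 5 or more UMIs, and the highest nucleus had 19. The coefficient for CD74 was 1.93 to 2.95 in saline, 1.05 to 1.69 in ASO and 0.916 to 1.51 in OTV animals, so saline did not overlap the treated groups in this descriptive measure. Few nuclei carry this measure. Those with 5 or more CD74 UMIs numbered 51, 12 and 8 in saline replicates 1, 2 and 3 and 18, 34 and 17 in ASO replicates 1, 2 and 3. The OTV group had 10, and such a count also depends on depth. For APBB1IP the ASO animals were lowest by a narrow margin, at 0.365 to 0.439 against 0.447 to 0.480 in saline and 0.442 to 0.521 in OTV. Within cluster 7 the ranges were 0.344 to 0.428 in ASO, 0.469 to 0.508 in saline and 0.452 to 0.588 in OTV. Within cluster 9 all groups overlapped, at 0.377 to 0.446, 0.372 to 0.450 and 0.389 to 0.451 in the same order.

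Clusters 7 and 9, the clusters that make up the myeloid class, both carried all members. CD74 was higher in cluster 9 in 9 of 9 animals, by 0.49 ± 0.37 on the log2 scale, and DOCK8 in 9 of 9 by 0.13 ± 0.11 (SD, n = 9 each). P2RY12 was higher in cluster 9 in 8 of 9 animals, by 0.30 ± 0.26 (SD, n = 9). In the OTV animals P2RY12, CX3CR1 and PTPRC were higher in cluster 9 in 3 of 3, by 0.47 ± 0.12, 0.47 ± 0.25 and 0.42 ± 0.17 (SD, n = 3 each). So were CD74 by 0.65 ± 0.20, DOCK8 by 0.22 ± 0.15, APBB1IP by 0.20 ± 0.14 and CSF1R by 0.18 ± 0.14 (SD, n = 3 each). AIF1 and APOE were higher there in 2 of 3 OTV animals and SPP1 in 1 of 3. Over all 9 animals CSF1R differed by 0.07 ± 0.14 and APOE by -0.04 ± 0.22, about the spread between animals or less (SD, n = 9 each). SPP1 was lower in cluster 9 in 7 of 9 animals, with a mean of -0.20 ± 0.37 (SD, n = 9), and in the ASO animals the difference was -0.57 ± 0.14 (SD, n = 3). These differences have no test, because the clusters were formed from these genes. Cluster 9 nuclei were deeper, with medians of 2151 to 6865 UMIs against 1275 to 4173.5 UMIs in cluster 7.

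The first comparison asked whether the intrathecal oligonucleotide moved the microglial genes. None of the 10 members passed in ASO against saline, by the quasi-likelihood test of edgeR, with p-values adjusted after Benjamini and Hochberg over 12667 genes, where 0.197% of all genes were called. At an unadjusted p under 0.05 there were 2 members, APBB1IP and PTPRC, and the DESeq2 Wald test also called 0 members. CSF1R was 777, 911 and 918 CPM in saline replicates 1, 2 and 3 and 803, 974 and 864 CPM in the ASO animals, which is a difference within the spread of either group. The edgeR log2 change of CSF1R was -0.02 (SE 0.15, adjusted p = 0.991). P2RY12 was 199, 249 and 183 CPM in saline and 259, 393 and 207 CPM in ASO animals, with ASO replicate 2 the highest of all 9 animals and overlapping groups. Its log2 change of 0.41 (SE 0.35) had an adjusted p of 0.751 in edgeR.

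The 2 members with a small unadjusted p went in opposite directions. PTPRC was 705, 584 and 483 CPM in saline and 738, 706 and 862 CPM in ASO animals, without overlap, and its log2 change was 0.34 (SE 0.14, edgeR adjusted p = 0.452). APBB1IP was 1702, 2402 and 1846 CPM in saline and 1481, 1797 and 1500 CPM in ASO animals, with overlap, and its log2 change was -0.35 (SE 0.14, edgeR adjusted p = 0.421). Over all 10 members the median log2 change was 0.16, with 7 values above 0 and 3 below, beside a median of -0.0034 over all genes tested.

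**Figure D2:**
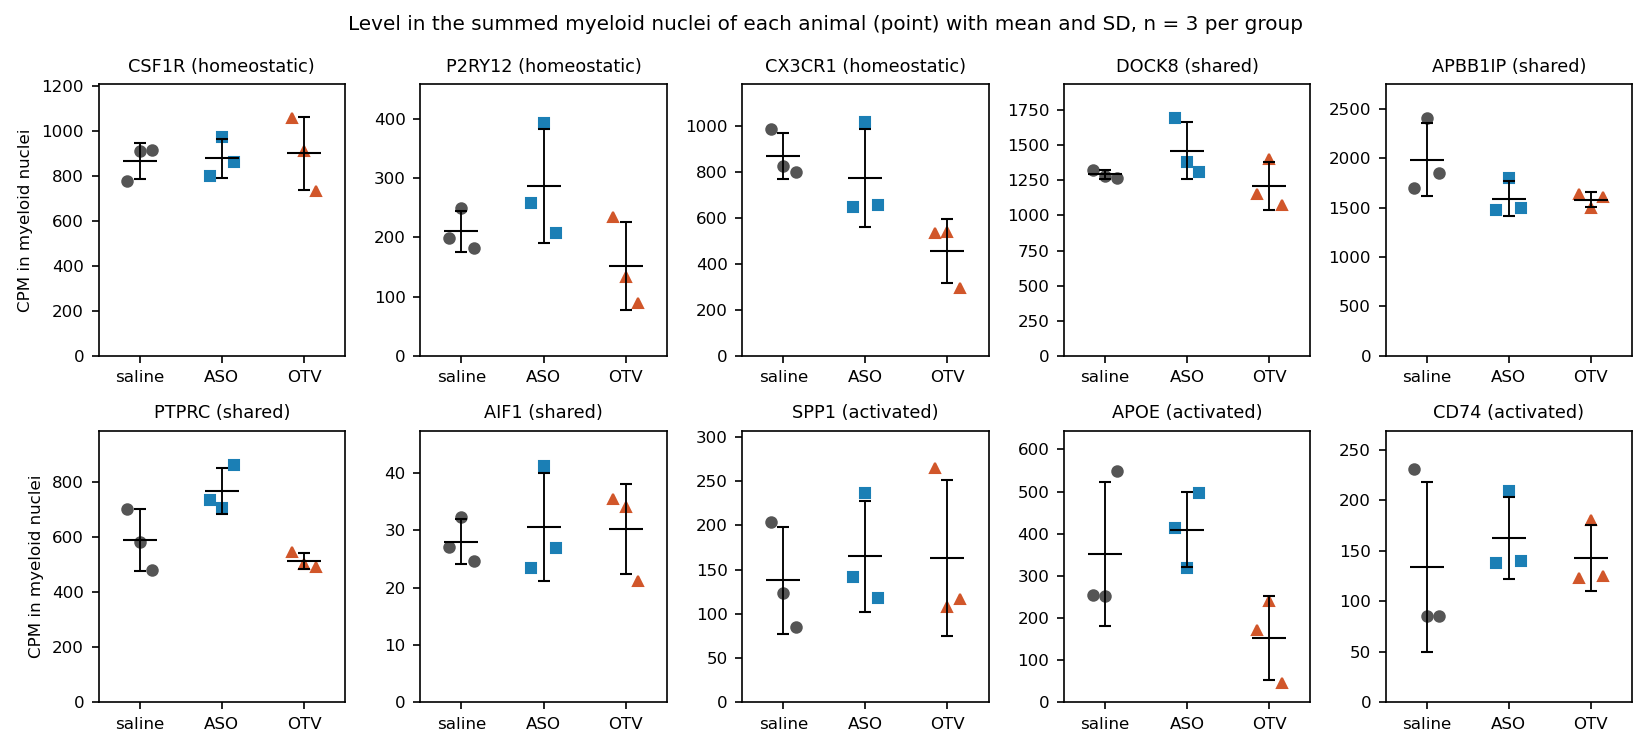
CPM of each gene in the summed myeloid nuclei on the vertical axis, with 1 point per animal and the mean and SD of 3 animals per group. CX3CR1 is lower in all 3 OTV animals (297 to 541 CPM) than in all saline animals (801 to 985 CPM), while CSF1R overlaps between all 3 groups.

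The second comparison set intravenous OTV:MALAT1 against saline. CX3CR1 fell and was the only member called, so 1 of 10 members was called where 12% of all 12667 genes were, a share near the background. CX3CR1 was 985, 824 and 801 CPM in saline and 534, 541 and 297 CPM in OTV animals. All OTV values lay below all saline values, with OTV replicate 3 the lowest. The log2 change was -0.98 (SE 0.26, edgeR adjusted p = 0.0384), a mean of 457 ± 139 CPM against 870.0 ± 100.3 CPM (SD, n = 3 each). The call was lost in 7 of 9 fits that left out an animal (saline replicate 1 or 2, ASO replicate 1 or 3, or any OTV animal), with log2 changes between -1.11 and -0.75 and adjusted p between 0.0510 and 0.127. It was also lost with no filter on low counts, at an adjusted p of 0.128.

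The other homeostatic receptors did not follow CX3CR1 through the test. CSF1R was 1058, 911 and 737 CPM in OTV animals, spanning the saline range, with a log2 change of 0.0043 (SE 0.15, edgeR adjusted p = 0.991). P2RY12 was 234, 132 and 88.9 CPM in OTV animals, so that OTV replicate 1 lay among the saline values and replicates 2 and 3 below them. Its log2 change was -0.49 (SE 0.36, edgeR adjusted p = 0.419). Of the shared members, APBB1IP was 1640, 1499 and 1607 CPM in OTV animals, below all saline animals, with a log2 change of -0.38 (SE 0.14, edgeR adjusted p = 0.113). DOCK8 (1150, 1400 and 1076 CPM), PTPRC (547, 502 and 494 CPM) and AIF1 (35.4, 34.0 and 21.2 CPM) overlapped with saline.

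Among the activated members APOE had the largest difference in myeloid nuclei, and it did not pass. APOE was 255, 254 and 550 CPM in saline and 171, 242 and 46.4 CPM in OTV animals, without overlap but with OTV replicate 2 close to saline replicates 1 and 2. OTV replicate 3 held only 35 APOE UMIs in myeloid nuclei. The log2 change was -1.23 (SE 0.54, edgeR adjusted p = 0.183), and it moved to -0.76 without saline replicate 3 and to -0.83 without OTV replicate 3. SPP1 was 204, 124 and 85.0 CPM in saline, 141, 236 and 117 CPM in ASO and 264, 108 and 117 CPM in OTV animals, and CD74 was 231, 85.7 and 85.0, then 137, 209 and 140, then 123, 181 and 125 CPM. Both overlapped between all groups, and each group had 1 animal well above its other animals.

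In 6 of the 10 members the lowest value of all 9 animals was that of OTV replicate 3, the animal with the fewest myeloid UMIs. Without that library the CX3CR1 change against saline was -0.75 (edgeR adjusted p = 0.0822). The 13 microglial markers, of which 10 are the members themselves, summed to 4779 to 6057 CPM in OTV animals. This sum, which is not separate from the member values, lay below the 6642 to 7195 CPM of saline and the 6669 to 7524 CPM of ASO animals. Most marker lists of other cells also differed in level between the groups in myeloid nuclei. The 4 OPC markers summed to at least 49.5 CPM in every OTV animal, at most 48.5 CPM in saline and at most 22.6 CPM in ASO animals. Oligodendrocyte genes are given as the share of their level in the oligodendrocytes of the same animal, a different quantity from the sums. The share was 9.10% to 12.6% in OTV, 3.21% to 6.87% in saline and 4.87% to 8.57% in ASO animals for MOG. It was 13.4% to 18.0%, 3.47% to 5.47% and 3.24% to 4.52% for MOBP, and 9.26% to 13.4%, 1.53% to 6.45% and 1.20% to 1.86% for ST18, in the same order. The 5 neuron markers summed to 101 to 166 CPM in OTV and 18.5 to 67.2 CPM in ASO, without overlap, and to 44.8 to 242 CPM in saline. The 5 astrocyte markers summed to 69.2 to 169 CPM in OTV and 20.6 to 58.3 CPM in ASO, again without overlap, and to 31.6 to 156 CPM in saline. The blood and border lists separated other pairs of groups. The 8 border macrophage markers summed to 1231 to 1552 CPM in ASO, below the 1732 to 1892 CPM of saline, and to 1440 to 1859 CPM in OTV. The 10 T, NK and B cell markers summed to 54.4 to 82.3 CPM in OTV, below the 112 to 419 CPM of ASO, and to 78.3 to 161 CPM in saline. The monocyte and neutrophil list summed to 40.2 to 53.3 CPM in ASO, above the 23.6 to 39.2 CPM of saline, and to 35.8 to 51.4 CPM in OTV. The 4 endothelial and mural markers summed to 35.9 to 59.8 CPM in saline, 50.2 to 57.5 CPM in ASO and 42.5 to 63.5 CPM in OTV, with overlap in every pair. No marker of the OPC, neuron, astrocyte, border macrophage or T, NK and B cell list was at 0 in a group. The part of these cells or their RNA in the changes of the members was not tested.

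The third comparison, OTV against ASO, sets whole treatments side by side, since route, dose and number of doses all differ. PTPRC fell and was the only member called, 1 of 10 where 20.5% of all genes were called. PTPRC was 738, 706 and 862 CPM in ASO and 547, 502 and 494 CPM in OTV animals, with no overlap. The log2 change was -0.59 (SE 0.15, edgeR adjusted p = 0.0181). The call was lost without ASO replicate 3 (adjusted p = 0.0650), OTV replicate 2 (adjusted p = 0.0714) or OTV replicate 3 (adjusted p = 0.0601), with log2 changes of -0.51, -0.53 and -0.56. Of the 10 members 9 had negative values, with a median of -0.25 beside -0.02 over all genes. CX3CR1 at -0.77 (SE 0.26, edgeR adjusted p = 0.0604), P2RY12 at -0.90 (SE 0.36, edgeR adjusted p = 0.113) and APOE at -1.41 (SE 0.54, edgeR adjusted p = 0.105) missed the threshold in edgeR. The DESeq2 Wald test called these 3 with PTPRC, where it called 2633 of all 12667 genes.

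**Figure D3:**
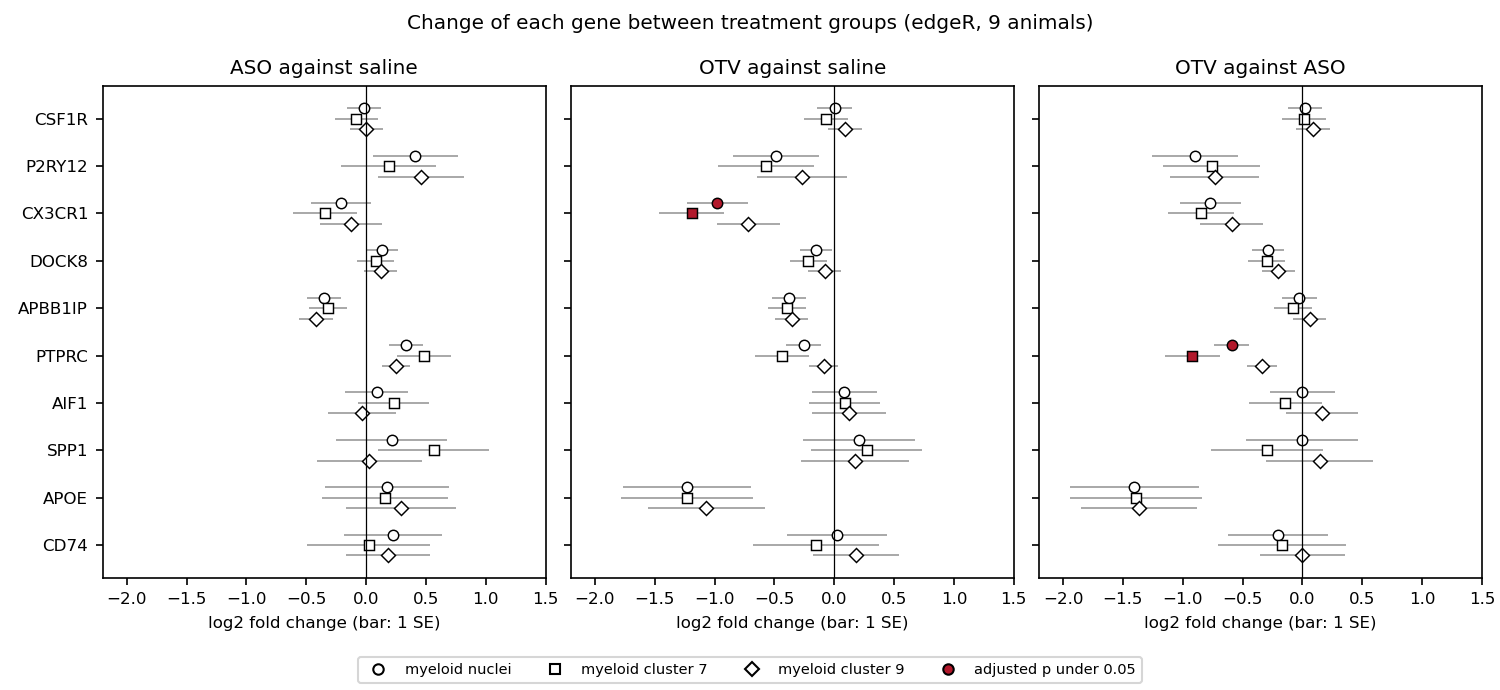
Log2 fold change of each gene on the horizontal axis with a bar of 1 SE, in all myeloid nuclei (circles), cluster 7 (squares) and cluster 9 (diamonds), for the 3 comparisons, with filled symbols at an edgeR adjusted p under 0.05. Only CX3CR1 in OTV against saline and PTPRC in OTV against ASO are filled, each in all myeloid nuclei and in cluster 7.

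Cluster 7 held 54.0% to 76.3% of the myeloid nuclei in saline, 37.5% to 43.0% in ASO and 57.1% to 79.7% in OTV animals, so the clusters were also compared within themselves. In cluster 7 CX3CR1 was 976, 848 and 837 CPM in saline and 513, 427 and 229 CPM in OTV animals, without overlap, and fell by 1.19 on the log2 scale (SE 0.27, edgeR adjusted p = 0.0232), where 9.86% of all genes were called. This call was lost with no filter and without saline replicate 1 or 2 or OTV replicate 2, with an adjusted p of up to 0.0775. In cluster 9 it was 993, 807 and 719 CPM in saline and 584, 662 and 345 CPM in OTV animals, also without overlap, at -0.72 (SE 0.27, edgeR adjusted p = 0.144). No member was called in cluster 9 in OTV against saline, where 6.90% of genes were, 2 members had an unadjusted p under 0.05, and DESeq2 called 0. The lower CX3CR1 level was therefore seen within each cluster, and the difference between the clusters, 0.50 (SE 0.13), did not pass in the interaction test with animal as a block (edgeR adjusted p = 0.277). No member passed that interaction test in any comparison, 3 had an unadjusted p under 0.05 in each, and DESeq2 called 0, where 0.0638%, 0.00911% and 0.118% of genes were called, in the order in which the comparisons are given here.

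PTPRC in cluster 7 was 764, 658 and 1157 CPM in ASO and 518, 428 and 381 CPM in OTV animals, and fell by 0.92 on the log2 scale in OTV against ASO (SE 0.23, edgeR adjusted p = 0.0219), where 15.2% of genes were called. This call was lost without ASO replicate 3 (-0.66, adjusted p = 0.0665), OTV replicate 2 (-0.88, adjusted p = 0.0793) or OTV replicate 3 (-0.82, adjusted p = 0.0812). ASO replicate 3 stood above all other animals. In that animal 34 of 220 cluster 7 nuclei, 15.5%, carried 2 or more UMIs of the T and NK cell genes CD2, CD3D, CD247, THEMIS, CD96 and NKG7, a mark chosen after its values were seen. These 34 nuclei held 410 PTPRC UMIs, 52.8% of those in cluster 7 of the animal, and 0 CSF1R UMIs. The other animals had 0 to 10 such nuclei in cluster 7, and cluster 9 had 2 in all 9 animals. Without the marked nuclei PTPRC in cluster 7 was 698, 643 and 649 CPM in ASO and 517, 421 and 381 CPM in OTV animals, still without overlap. The change was then -0.59 (SE 0.17, edgeR adjusted p = 0.0347), and in all myeloid nuclei it was -0.51 (SE 0.13, edgeR adjusted p = 0.0221).

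In cluster 9, which holds almost none of these nuclei, PTPRC was 728, 726 and 760 CPM in ASO and 614, 581 and 573 CPM in OTV animals. The groups did not overlap, and the change of -0.34 (SE 0.12, edgeR adjusted p = 0.0841) did not pass. No member was called there in OTV against ASO, where 14.0% of genes were, 2 members had an unadjusted p under 0.05, and DESeq2 called 1. In ASO against saline no member was called in either cluster, where 0.188% of genes in cluster 7 and 0.417% in cluster 9 were called. At an unadjusted p under 0.05 there were 0 members in cluster 7 and 1 in cluster 9, and DESeq2 called 0 in both.

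**Figure D4:**
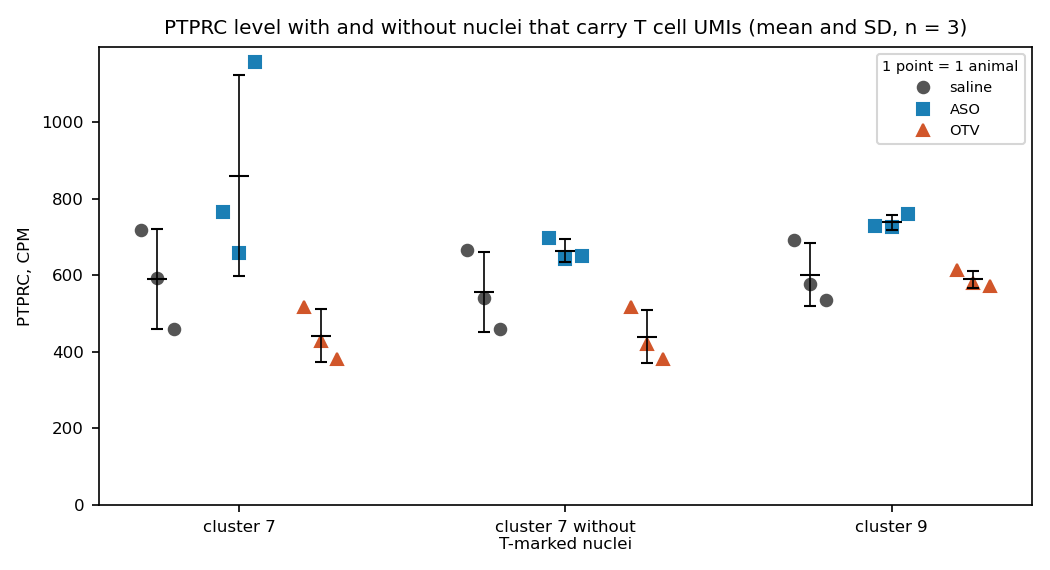
PTPRC in CPM on the vertical axis, per animal, in cluster 7, in cluster 7 without the nuclei that carry T and NK cell UMIs, and in cluster 9, with the mean and SD of 3 animals per group. ASO replicate 3 drops from 1157 to 649 CPM without the marked nuclei, and the OTV animals lie below the ASO animals in all 3 sets.

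A score that sets the activated against the homeostatic members, the mean log2(CPM + 1) of SPP1, APOE and CD74 minus that of CSF1R, P2RY12 and CX3CR1, did not separate the groups in all myeloid nuclei. It was -1.22, -2.03 and -1.68 in saline, -1.35, -1.54 and -1.28 in ASO and -1.52, -1.26 and -1.60 in OTV animals, and the 3 ranges overlapped. The means were -1.645 ± 0.41, -1.39 ± 0.14 and -1.46 ± 0.18 (SD, n = 3 each), so the differences of 0.26 for ASO minus saline, 0.18 for OTV minus saline and -0.07 for OTV minus ASO did not exceed the pooled SD of 0.27 between animals of a group. Without SPP1, an alternative chosen after seeing the data, OTV minus ASO was -0.36 and OTV minus saline was -0.08, with a pooled SD of 0.42, and the ranges still overlapped. In cluster 7 ASO minus saline was 0.45, above the pooled SD of 0.31 there, with ranges of -1.34 to -1.13 in ASO and -2.14 to -1.16 in saline that overlapped. In cluster 9 the same difference was 0.14, with a pooled SD of 0.24.

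The largest called change of a member was that of APOE in astrocytes. In astrocytes APOE was 762, 851 and 509 CPM in saline, 884, 813 and 537 CPM in ASO and 128, 97.6 and 57.5 CPM in OTV animals. The highest OTV animal lay below the lowest animal of the other groups by a wide margin, and saline and ASO overlapped. APOE fell by 2.86 on the log2 scale in OTV against saline (SE 0.34, edgeR adjusted p = 0.0013), where 15.4% of 13608 genes were called, and by 2.89 in OTV against ASO (SE 0.34, edgeR adjusted p = 0.000836), where 22.0% were. Those calls held in all 15 alternatives tried for each, with changes between -3.23 and -2.58. Of 8 members with enough counts for the test in astrocytes, AIF1 and CD74 being left out by the filter, APOE was the only 1 called in both. In ASO against saline 0 of 8 were called (0.0147% of genes), 1 had an unadjusted p under 0.05, and DESeq2 called 0.

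Of 5 astrocyte markers 1 fell with APOE, 1 rose and 3 did not pass, in both OTV comparisons. The water channel AQP4 fell by 1.32 against saline (SE 0.38, edgeR adjusted p = 0.0448) and by 1.60 against ASO (SE 0.38, edgeR adjusted p = 0.0173). ALDH1L1 rose by 1.13 (SE 0.16, edgeR adjusted p = 0.00283) and by 1.42 (SE 0.17, edgeR adjusted p = 0.000807). GJA1 stood at -1.05 and -1.28 (edgeR adjusted p = 0.277 and 0.171), SLC1A2 at -0.77 and -0.38 (edgeR adjusted p = 0.375 and 0.658) and GFAP at 0.48 and -0.01 (edgeR adjusted p = 0.790 and 0.996), each with overlapping groups. Within cluster 6, the main astrocyte cluster, APOE was 749, 840.0 and 505 CPM in saline, 881, 813 and 504 CPM in ASO and 125, 98.6 and 56.6 CPM in OTV animals, the same gap as in all astrocytes.

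**Figure D5:**
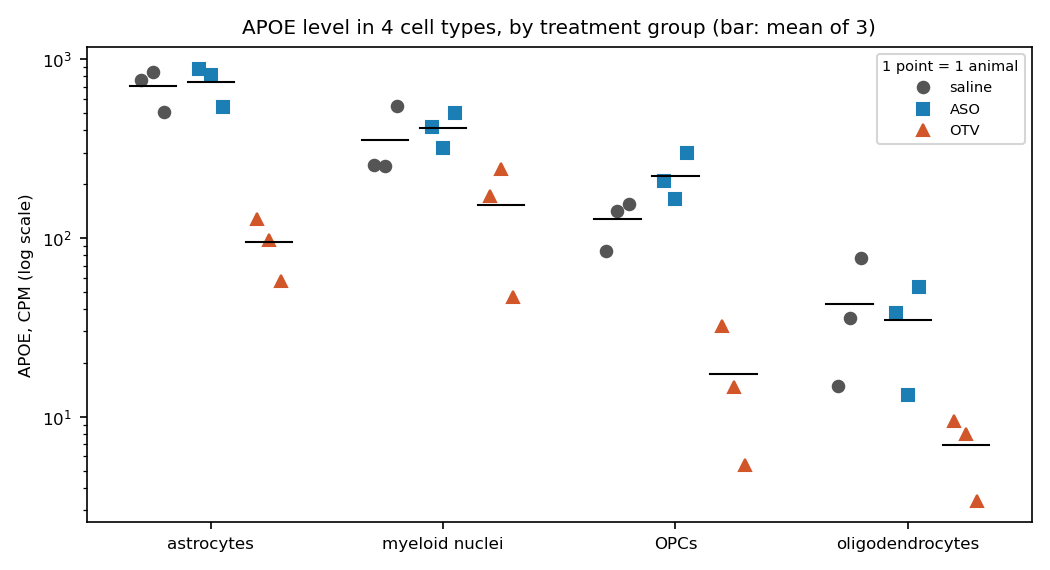
APOE in CPM on a log scale, per animal, in astrocytes, myeloid nuclei, OPCs and oligodendrocytes, with a bar at the mean of 3 animals per group. The OTV animals lie below the saline and ASO animals in each of the 4 types, by the widest margin in astrocytes and OPCs.

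The lower APOE level was seen beyond astrocytes. In OPCs, where no test was run, APOE was 84.5, 141 and 155 CPM in saline, 207, 164 and 297 CPM in ASO and 32.2, 14.7 and 5.34 CPM in OTV animals, without overlap between OTV and the rest. In oligodendrocytes APOE was 14.9, 35.8 and 76.9 CPM in saline, 37.9, 13.2 and 53.4 CPM in ASO and 9.50, 8.05 and 3.39 CPM in OTV animals. It fell by 2.51 in OTV against saline (SE 0.69, edgeR adjusted p = 0.0351), where 19.2% of 20036 genes were called, and by 2.19 in OTV against ASO (SE 0.68, edgeR adjusted p = 0.0427), where 26.3% were. The oligodendrocyte level of APOE was 6.52% ± 4.26 of the astrocyte level (SD, n = 9). The astrocyte genes stood there at 5.47% ± 6.63 for GFAP, 4.34% ± 2.77 for GJA1, 3.76% ± 2.59 for AQP4 and 0.388% ± 0.38 for SLC1A2 (SD, n = 9 each), and whether these UMIs are free astrocyte RNA was not tested. The call against saline was lost in 6 of 9 fits that left out an animal, among them saline replicate 3, without which the change was -1.78 (adjusted p = 0.0834). The call against ASO was also lost in 6 of 9, with changes between -2.58 and -1.77.

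The change of APOE in myeloid nuclei was smaller than in astrocytes by 1.49 on the log2 scale in OTV against saline (SE 0.61), but this difference did not pass in the test of type by treatment with animal as a block (edgeR adjusted p = 0.436). In OTV against ASO the difference was 1.24 (SE 0.60, edgeR adjusted p = 0.370). No member was called in that test in any of the 3 comparisons, where 0.0467%, 0.147% and 1.19% of genes were, 1 member had an unadjusted p under 0.05 in each, and DESeq2 called 0.

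In oligodendrocytes 3 of 10 members were called in OTV against ASO, APOE and the shared members APBB1IP and DOCK8, a share near the 26.3% of all genes. APBB1IP was 1.66, 1.98 and 2.03 CPM in ASO and 7.66, 8.05 and 8.39 CPM in OTV animals, and rose by 2.17 (SE 0.47, edgeR adjusted p = 0.0096). DOCK8 was 4.15, 2.97 and 4.19 CPM in ASO and 6.52, 6.83 and 6.40 CPM in OTV animals, and rose by 0.90 (SE 0.28, edgeR adjusted p = 0.0438), a call lost in 7 of 9 fits that left out an animal. The groups did not overlap for either gene. The oligodendrocyte levels were small shares of the myeloid levels. For APBB1IP the share was 0.119% ± 0.0140 in ASO and 0.509% ± 0.0368 in OTV animals, and for DOCK8 0.260% ± 0.0538 and 0.550% ± 0.0554 (SD, n = 3 each). For CSF1R, which oligodendrocytes should lack, the ASO animals had 0.865% ± 0.262 and the OTV animals 0.507% ± 0.140 (SD, n = 3 each). P2RY12 (0.931% and 1.65%), CX3CR1 (0.374% and 0.708%), PTPRC (0.348% and 0.732%) and CD74 (1.45% and 1.77%) had the higher mean share in OTV, while AIF1 (2.35% and 1.10%) had the lower. A share also rises where the myeloid level falls, and the myeloid means of P2RY12, CX3CR1, PTPRC and CD74 were lower in OTV than in ASO animals. In oligodendrocytes themselves 5 members had a positive change in OTV against ASO and 5 a negative change. Whether the UMIs of these genes are free myeloid RNA was not tested. Against saline neither APBB1IP nor DOCK8 was called, and APOE was the only 1 of 10, where 19.2% of all genes were. In ASO against saline 0 of 10 members were called in oligodendrocytes (0.394% of genes), 1 had an unadjusted p under 0.05, and DESeq2 called 0.

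Other genes of the microglial programme gave a wider view of the myeloid nuclei. Of 22 homeostatic genes 18 were found by symbol and tested, and 14235 of the 29128 features carry only an Ensembl identifier, so the other genes may be present without a symbol. In OTV against saline 0 rose and 3 fell, where 4.76% of all genes rose and 7.26% fell, with a median of -0.40 over the list beside -0.03 over all genes. GPR34, a lysophosphatidylserine receptor, was 664, 705 and 503 CPM in saline and 280, 180 and 158 CPM in OTV animals, and fell by 1.63 (SE 0.22, edgeR adjusted p = 0.00192). C1QC, a subunit of complement C1q, was 291, 329 and 281 CPM in saline and 165, 72.5 and 88.9 CPM in OTV animals, and fell by 1.48 (SE 0.29, edgeR adjusted p = 0.0132). MERTK, a receptor for engulfing dead cells, fell by 0.82 (SE 0.22, edgeR adjusted p = 0.0392) from 2098 ± 174 to 1228 ± 356 CPM (SD, n = 3 each). The groups did not overlap for any of the 3 genes. MERTK was also below all saline animals in ASO, at 1059, 1478 and 1708 CPM, with a change of -0.61 that was not called (SE 0.22, edgeR adjusted p = 0.372), while GPR34 and C1QC overlapped between ASO and saline.

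In OTV against ASO 0 of these 18 genes rose and 4 fell, GPR34, C1QC, ADAM28 and P2RY13, where 9.42% of all genes rose and 11.1% fell, with a list median of -0.27. The ADP receptor P2RY13 was 473, 399 and 282 CPM in ASO and 170, 102 and 35.8 CPM in OTV animals, a change of -1.85 (SE 0.46, edgeR adjusted p = 0.0277). TMEM119, a further microglial marker, was 15.1 ± 5.38 CPM in saline, 10.3 ± 7.38 CPM in ASO and 5.39 ± 4.02 CPM in OTV animals (SD, n = 3 each) and did not pass in any comparison. In ASO against saline no gene of any of the 5 lists was called, where 0.197% of all genes were.

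Genes of activation were called in both directions in the OTV comparisons, at shares near those of all genes. Of 30 listed genes 22 were tested, of which 2 were called in OTV against saline and 4 in OTV against ASO, where 12% and 20.5% of all genes were. In OTV against saline the lysosomal protease CTSB rose by 0.78 (SE 0.16, edgeR adjusted p = 0.0136) from 225, 293 and 173 to 417, 411 and 407 CPM, while HIF1A fell by 0.67 (SE 0.14, edgeR adjusted p = 0.0147). CTSB was as high in ASO animals, at 491, 399 and 427 CPM, where the change against saline was not called. In OTV against ASO the receptors CLEC7A, at 2.06 (SE 0.51, edgeR adjusted p = 0.0256), and TNFRSF1B rose, and the lysosomal protein CD68, at -1.20 (SE 0.29, edgeR adjusted p = 0.0164), and HIF1A fell. CLEC7A was 28.8, 25.9 and 9.59 CPM in ASO, 97.0, 111 and 63.7 CPM in OTV and 38.1, 98.3 and 33.9 CPM in saline animals, so saline overlapped OTV. TREM2, the receptor known for lipid-associated activation, was 128 ± 39.5 CPM in saline, 138 ± 18.3 CPM in ASO and 138 ± 38.0 CPM in OTV animals (SD, n = 3 each), with log2 changes from 0.0022 to 0.06.

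Of 9 genes of MHC class II presentation 7 were tested and only HLA-DRA was called, in OTV against ASO, where 20.5% of all genes were. It was 215, 83.5 and 118 CPM in ASO and 37.7, 37.6 and 42.5 CPM in OTV animals, a change of -1.84 (SE 0.55, edgeR adjusted p = 0.0492), while its chaperone CD74 stood at -0.21 (SE 0.42, edgeR adjusted p = 0.771). HLA-DRA was 99.9, 28.4 and 34.5 CPM in saline animals, so saline overlapped both ASO and OTV. Of 20 genes for myeloid transcription factors and signalling 15 were tested, of which 2 were called against saline and 4 against ASO, shares near the 12% and 20.5% of all genes. The adaptor FYB1 rose by 1.13 against saline and by 1.13 against ASO (SE 0.24 each, edgeR adjusted p = 0.0164 and 0.0106), and CYBB, the catalytic subunit of the phagocyte oxidase, fell by 0.81 and 0.93 (SE 0.13 each, edgeR adjusted p = 0.00368 and 0.0011). ITGB2 and FLI1 rose against ASO alone, and whether those changes differ between the comparisons was not tested. Of 8 ligands and partner receptors of the members 6 were tested and 1 was called in each OTV comparison, again near those shares. LRP1, a receptor for APOE particles, rose by 0.52 against saline (SE 0.12, edgeR adjusted p = 0.0194) and by 0.79 against ASO (SE 0.12, edgeR adjusted p = 0.00197).

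Across the 17 clusters, with all animals summed, the genes most like each member among 13827 candidates were named by Pearson r of log2(CPM + 1). For 7 members the nearest genes included PIK3AP1 and CD53 for CSF1R, CD53 and SIGLEC5 for CX3CR1, SIGLEC5 and RGS10 for P2RY12, PLAC8 and BIN2 for DOCK8, PLAC8 and KYNU for PTPRC, BTK for AIF1, and PLAC8 and DOCK8 for CD74, all at r of 0.98 to 0.99. APBB1IP had DOCK2 at r = 0.98 as its nearest gene. SPP1 instead followed CLDND1, CRYAB and CARNS1, at r = 0.97, 0.97 and 0.96. APOE followed RAB31, STK17B and FAM89A at r = 0.93, 0.93 and 0.91. The clusters share their 9 libraries and their differences in depth, so these values describe the pattern and carry no p.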

How the data were processed

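Single-nucleus RNA libraries (10x Genomics) of 9 thalamus samples were processed with Cell Ranger 6.1.2 and Seurat 4, with the build GRCh38.p13, per the submitters' processing notes; the deposited features carry cynomolgus Ensembl identifiers or symbols. The authors deposited raw UMI counts per nucleus and a table with animal, cell type, cluster and a doublet score per nucleus. All deposited nuclei were kept, and the authors' doublet score served in an alternative that left out the highest 10% of each animal.

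Counts were summed per animal and type and tested with edgeR 4.0.16 in R 4.3.3 (TMM factors, filterByExpr, robust quasi-likelihood fit of all 9 animals, Benjamini-Hochberg adjustment over all genes tested, threshold 0.05). Each tested type had at least 20 nuclei in every animal. Levels of neurons and unnamed nuclei, which were not tested, include animals with fewer. Clusters and types were compared in their response with animal as a block. DESeq2 1.42.0 was an alternative, as were other scalings, no filter, thinned sums and leaving out each animal. The code was tested on simulated counts. Levels were computed in Python 3.11.15. The members and lists were chosen with earlier results of these data known. All 10 members were named, and of each gene list up to 3 rising and 3 falling called genes per comparison by smallest adjusted p, provided that the groups did not overlap; TREM2, TMEM119 and the astrocyte markers were named beside them, and for each member up to 3 most similar genes. Each animal gave 1 library, so p-values measure the spread between animals. Myeloid depth was 753516 to 3815142 UMIs per animal. The sum of the oligodendrocyte marker list is not reported here.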

Additional observations from a re-analysis of the deposited data

How the results depend on the processing

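No member changed direction while called. In myeloid nuclei the count of members called in OTV against saline, 1, was 0 with no filter and 0 to 1 when an animal was left out. In OTV against ASO, 1, it was 4 with DESeq2, 2 without the highest doublet scores and 0 to 2 when an animal was left out. In cluster 7 the count in OTV against saline, 1, was 0 with no filter and 0 to 1 when an animal was left out. In OTV against ASO, 1, it was 3 with DESeq2, 2 with total UMI counts, 2 with thinned sums, 2 without the highest doublet scores, 2 without T-marked nuclei and 0 to 2 when an animal was left out. In cluster 9 the count of 0 in OTV against saline was 2 with no filter; that in OTV against ASO was 1 with DESeq2, 2 with no filter and 0 to 1 when an animal was left out. In astrocytes the count in OTV against ASO, 1, was 2 with the 6 compared animals only and 1 to 2 when an animal was left out. In oligodendrocytes the count in OTV against saline, 1, was 0 with no filter and 0 to 1 when an animal was left out, and that in OTV against ASO, 3, was 1 with no filter and 1 to 3 when an animal was left out. The cluster interaction in OTV against saline and in OTV against ASO, and the myeloid interaction in OTV against ASO, had 0 members called and 0 to 1 when an animal was left out. The score difference of OTV minus ASO, -0.07, was -0.36 without SPP1. The cause of these shifts was not tested. Over all genes in myeloid nuclei, calls in ASO against saline numbered 25, and 195 with DESeq2, 85 with no filter and 11 with the 6 compared animals; in OTV against saline 1522, and 931 with thinned sums and 973 with the 6 animals; in OTV against ASO 2597, and 1608 with thinned sums. When an animal was left out they numbered 12 to 57 in ASO against saline (highest without saline replicate 3, 12 without ASO replicate 1 or 2, 15 without OTV replicate 2, 16 without saline replicate 1). In OTV against saline they numbered 702 to 1973, with 702 and 757 without saline replicates 1 and 2 and 834 and 781 without OTV replicates 2 and 3. In OTV against ASO they numbered 1357 to 3058, with 1357 and 1729 without ASO replicates 1 and 2 and 1582 and 1713 without OTV replicates 2 and 3. The total-count and T-marked alternatives and the score without SPP1 were chosen after seeing the data. No paired analysis was possible because no label ties an animal of a group to an animal of another. AIF1, and APOE in OTV replicate 3 with 35 UMIs, are limited by depth.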
